A study of Mus musculus with 8 samples.

Results

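The Z-disc is the protein wall that anchors the actin filaments of neighbouring sarcomeres in heart muscle, and LIM domains are zinc-binding modules through which many of its proteins hold their partners. A list of 10 genes of this structure (taken by their symbols in the platform's annotation) was followed over 8 arrays of mouse heart: Pdlim3, Pdlim5, Pdlim7, Ldb3, Csrp3, Fhl2, Xirp1, Xirp2, Nexn and Myoz2. Together 9 of them had 19 probe sets out of 45101 in the table. No probe set carried the symbol Xirp2, so this gene is not analysed here. A probe set is a group of short oligonucleotides on the array that reports 1 transcript region, and several probe sets of 1 gene share that gene and often parts of its transcripts.

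The 4 groups held 2 hearts each, from male mice aged 6 to 8 weeks: saline-treated MT+/+, doxorubicin-treated (DOX) MT+/+, saline-treated MT-/- and DOX-treated MT-/-. MT-/- mice are labelled as null for metallothionein I and II, small zinc-binding proteins encoded by Mt1 and Mt2, and MT+/+ mice as their wild-type counterparts. For the null allele and the strain the sources used here give no further detail. DOX, an anthracycline cancer drug with toxicity to the heart, was given once at 15 mg/kg into the body cavity, controls received saline, and hearts were taken on day 4. Values are intensities of 1-colour arrays on a linear scale, and their number limits the precision.

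As background, the Z-disc is both an anchor and a sensor of strain. Alpha-actinin crosslinks the actin filaments there. PDZ-LIM proteins (Pdlim3, Pdlim5, Pdlim7 and Ldb3) dock on alpha-actinin and, where LIM domains are present, recruit kinases. The LIM-only proteins Csrp3 and Fhl2 move between Z-disc and nucleus, and mutations in Ldb3, Csrp3, Nexn and other members cause cardiomyopathy in humans. Xin proteins (Xirp1 and Xirp2) bind actin at the intercalated disc and mark muscle repair, nexilin (Nexn) binds actin filaments, and calsarcin-1 (Myoz2) tethers the phosphatase calcineurin to alpha-actinin.

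Mt1 signal was present on every array, at 3722 and 4034 in MT+/+ saline, 6735 and 9285 in MT+/+ DOX, 4667 and 5322 in MT-/- saline and 12549 and 12850 in MT-/- DOX, so the deletion is not visible in its signal and the groups are called by their labels. Heart muscle was well represented: 12 of 12 cardiomyocyte markers lay between 1592 and 20470 on all arrays. Of 10 skeletal muscle markers 5 were bright enough to be tested, Mylpf and Tnni2 among them, and lay between 69.2 and 203. The fast myosin heavy chain genes Myh1, Myh2 and Myh4 were too dim to be tested. After DOX, averaged over genotypes, 8 of 11 fibroblast markers, 9 of 9 macrophage markers and 3 of 7 smooth muscle markers fell. So did 5 of 12 cardiomyocyte markers, from Ryr2 (-0.50) and Ckm (-0.41) to Tnni3 (-0.18), while a dimmer probe set of Tnnt2 rose (+1.07). Over all 13008 genes 1016 fell and 908 rose. None of the markers on these lists was listed at 0. In whole hearts, fewer cells of a type and less RNA per cell cannot be told apart.

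DOX against saline, averaged over both genotypes, lowered Fhl2 and raised Xirp1, Csrp3 and part of the Pdlim5 signal, while Nexn and Myoz2 showed no call. Of the 19 member probe sets, 6 rose and 1 fell at an adjusted p under 0.05 (limma with Benjamini-Hochberg adjustment over 24751 probe sets). Over all tested probe sets 13.9% were called, 7.03% higher and 6.84% lower. Of the 6 risers 4 report the single gene Pdlim5, so the calls cover 4 genes: Pdlim5, Csrp3, Xirp1 and Fhl2. The median difference of the 19, of which 7 report Pdlim5, was log2 +0.21, against -0.00 over all tested probe sets. Over the 9 genes, each by its brightest probe set, it was +0.05, against -0.01 over all genes. All 19 passed the filter on dim signal, but 2 of the Pdlim5 probe sets, 1422861_s_at and 1422862_at, passed it through the MT-/- DOX arrays alone, where they are high. Their calls are therefore given as a description, and without these 2 probe sets 5 members rose and 1 fell. Likewise a filter on the mean over all arrays left 17 probe sets with 6 calls. The 4 DOX arrays lay wholly above the 4 saline arrays for 3 probe sets and wholly below for 3, against 18.4% of all probe sets in either direction. Over all probe sets, blocking on the replicate number raised the calls from 3433 to 6702 of 24751. Among the 17 member probe sets without those 2 of Pdlim5, 12 were called with the block. Among all 19 it raised the calls from 7 to 14. With 1 array left out they numbered 3 or 4, except without MT-/- DOX 1, where they stayed at 7.

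**Figure D1:**
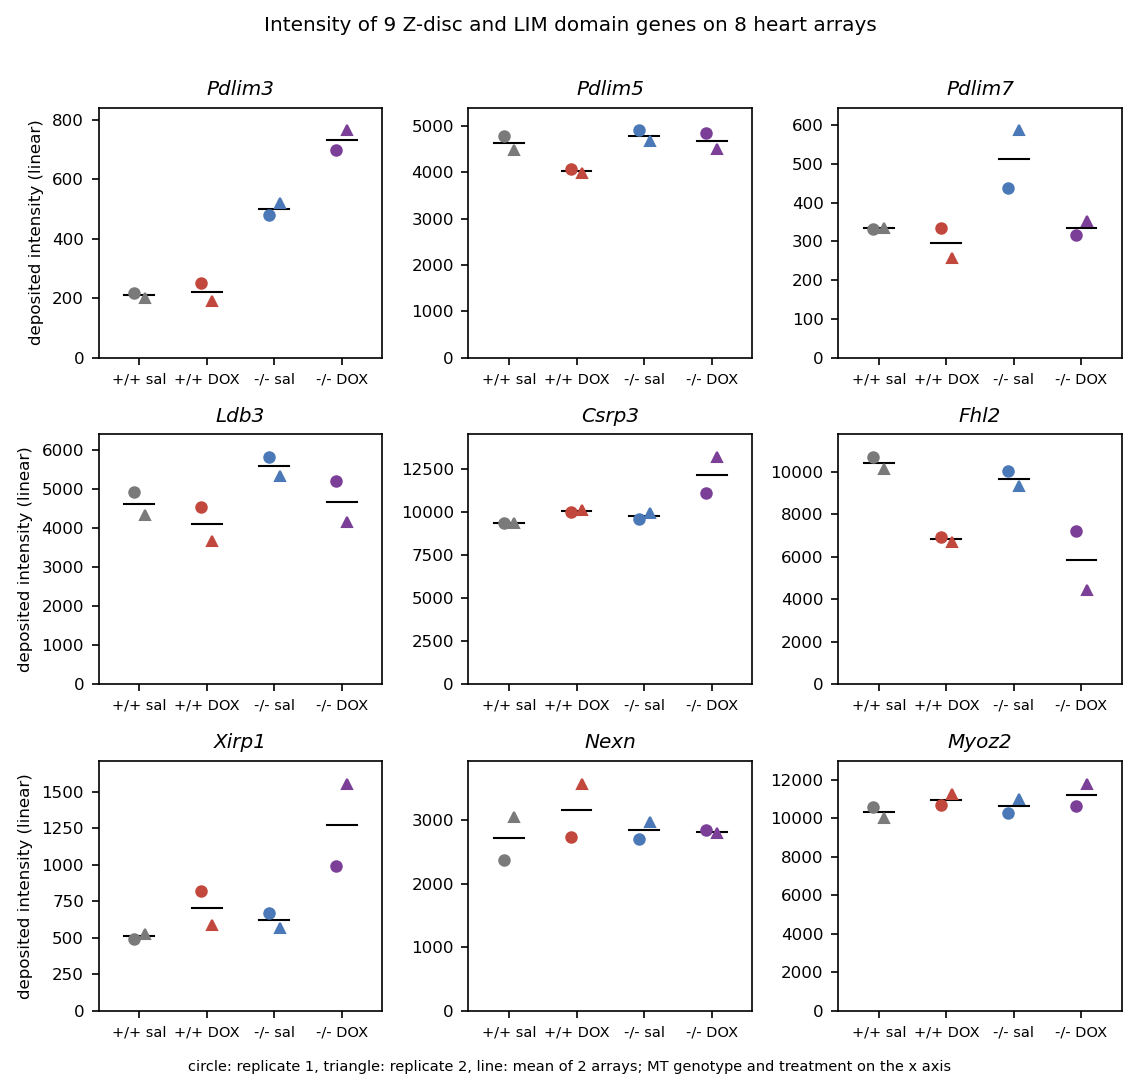
Deposited intensity (linear scale, from 0) of the probe set with the highest mean for each of 9 genes; circles and triangles are replicates 1 and 2 of each group and black lines are means of 2 arrays. Fhl2 is lower on all 4 DOX arrays (4447 to 7190) than on the 4 saline arrays (9317 to 10689), and Pdlim3 is higher on all 4 MT-/- arrays (479 to 765) than on the 4 MT+/+ arrays (191 to 252).

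Fhl2, a LIM-only protein that binds titin and restrains growth signalling in the stressed heart, had the most separated DOX response of the genes. Its intensity was 10689 and 10111 in MT+/+ saline, 6946 and 6692 in MT+/+ DOX, 10025 and 9317 in MT-/- saline, and 7190 and 4447 in MT-/- DOX. All DOX arrays were below all saline arrays, and MT-/- DOX 2 was the lowest. Averaged over genotypes Fhl2 fell by log2 0.69 ± 0.13 (standard error from limma, 1.62-fold, adjusted p 0.0105), a call kept whichever array was left out (largest adjusted p 0.0413) and under the other settings tried (largest 0.0176). In MT-/- the fall was log2 -0.78 ± 0.19 (adjusted p 0.0448). Leaving out any one array except MT-/- DOX 1 ended that call (adjusted p up to 0.226), as did only the compared groups (0.0989) and no trend (0.0676), and without MT-/- DOX 2 the difference was -0.42. In MT+/+ the difference of -0.61 ± 0.19 missed the threshold (adjusted p 0.138), but passed with the replicate block (0.0223), in a fit of the compared groups alone (0.0103) and without MT-/- DOX 1 (0.0069) or MT-/- DOX 2 (0.0064). The interaction was -0.17 ± 0.26 (adjusted p 0.9995), with no call.

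The upstream sequences of Fhl2 and Ldb3 are shown because, of the members with a window, these 2 hold a CArG box, the element read by serum response factor (SRF), a regulator of sarcomere genes. RefSeq (GRCm38.p6) gave windows for 8 of the 10 genes, 12 windows in all, and each was cut to the 250 bases before a start. They were searched on both strands for the CArG box, the site of the muscle factor MEF2 and CATTCC, the core of the MCAT element read by TEAD factors. Capitals mark the matches, and each sequence runs 5′ to 3′ on the gene's strand. Fhl2 has 2 starts, at chr1:43196762-43197011 (minus strand) and chr1:43163962-43164211 (minus strand), and Ldb3 is shown for its start at chr14:34588682-34588931 (minus strand).
Fhl2 start 1: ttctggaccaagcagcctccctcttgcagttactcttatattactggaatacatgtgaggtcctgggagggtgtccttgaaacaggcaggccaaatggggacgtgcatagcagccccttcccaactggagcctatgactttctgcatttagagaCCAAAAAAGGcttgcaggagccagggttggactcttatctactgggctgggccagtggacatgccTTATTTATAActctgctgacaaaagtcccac
Fhl2 start 2: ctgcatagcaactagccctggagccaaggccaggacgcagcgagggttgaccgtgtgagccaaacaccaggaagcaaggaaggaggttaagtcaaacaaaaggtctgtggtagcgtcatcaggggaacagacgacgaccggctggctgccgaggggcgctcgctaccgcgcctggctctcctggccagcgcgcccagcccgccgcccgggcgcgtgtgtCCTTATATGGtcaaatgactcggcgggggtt
Ldb3 start 1: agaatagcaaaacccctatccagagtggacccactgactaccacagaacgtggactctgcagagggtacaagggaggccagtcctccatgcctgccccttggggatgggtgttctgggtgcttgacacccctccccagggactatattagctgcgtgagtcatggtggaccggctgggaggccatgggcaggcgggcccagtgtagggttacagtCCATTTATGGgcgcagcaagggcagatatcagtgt

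In Fhl2 the CArG box CCAAAAAAGG ends 87 bases before start 1 and a MEF2 site match, TTATTTATAA, ends 22 bases before it. At start 2 the CArG box is CCTTATATGG and also ends 22 bases before the start. The Ldb3 box, CCATTTATGG, ends 26 bases before the start shown and falls in the window of its other start as well, since the 2 windows overlap. A CArG box was found in 1.47% of all 32851 upstream windows of this length, a MEF2 site in 2.92% and CATTCC in 12.6%. MEF2 matches also lay before Myoz2 and Xirp2. The windows of Pdlim5, Pdlim7 and Csrp3 held none of the 3 motifs, which says only that these letters are not in these windows. A match is a run of letters and not a measured binding site.

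Csrp3 encodes muscle LIM protein, a strain sensor of the Z-disc, and was among the brightest members. It read 9362 and 9392 in MT+/+ saline, 10033 and 10129 in MT+/+ DOX, 9614 and 9948 in MT-/- saline, and 11112 and 13227 in MT-/- DOX. Each DOX array was above each saline array, by a small margin in MT+/+. The rise averaged over genotypes was log2 +0.21 ± 0.05 (1.15-fold, adjusted p 0.0274). It missed the threshold when any one array except MT-/- DOX 1 was left out (adjusted p up to 0.103), without the filter (0.0525) and in the fit without a mean-variance trend (0.146). In MT-/- the difference was +0.29 ± 0.07 (adjusted p 0.0495), likewise lost when any one array except MT-/- DOX 1 was left out and in 7 of 10 other settings, and +0.18 without MT-/- DOX 2. In MT+/+ it was +0.13 (adjusted p 0.431).

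Xirp1, encoding the actin-binding protein Xin of the intercalated disc, read 495 and 526 in MT+/+ saline, 824 and 585 in MT+/+ DOX, 673 and 566 in MT-/- saline, and 995 and 1558 in MT-/- DOX. DOX arrays were the higher ones within each genotype, but MT+/+ DOX 2 lay below MT-/- saline 1. Averaged over genotypes Xirp1 rose by log2 0.68 ± 0.17 (1.61-fold, adjusted p 0.0275), and in MT-/- by 1.01 ± 0.23 (2.01-fold, adjusted p 0.0403). In MT+/+ it was +0.36 ± 0.23 (adjusted p 0.513). The averaged call was lost without either MT+/+ saline array, MT+/+ DOX 1, MT-/- saline 2 or MT-/- DOX 2 (adjusted p up to 0.0950), and that in MT-/- without any saline array or MT-/- DOX 2 (up to 0.233) or with only the compared groups (0.0652). The interaction of +0.65 ± 0.33 was not called (adjusted p 0.9995).

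Pdlim5 encodes Enigma homologue (ENH), a PDZ-LIM protein made in long forms with LIM domains and in shorter muscle forms without them. Its 7 probe sets fell into 2 bright ones and 5 dimmer ones. The brightest, 1429783_at, read 4786 and 4484 in MT+/+ saline, 4072 and 3987 in MT+/+ DOX, 4909 and 4672 in MT-/- saline, and 4854 and 4514 in MT-/- DOX. The next, 1421413_a_at (annotated to NM_022554), ranged from 1972 to 2779. Both were nearly flat: averaged over genotypes DOX gave -0.11 ± 0.07 (adjusted p 0.347) and -0.19 ± 0.11 (adjusted p 0.334).

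The dimmer Pdlim5 probe sets rose on the MT-/- DOX arrays. For 1427475_a_at (annotated to BC002020) the intensities were 224 and 301 in MT+/+ saline, 385 and 451 in MT+/+ DOX, 296 and 383 in MT-/- saline, and 649 and 1504 in MT-/- DOX. For 1450786_x_at they were 87.7 and 84.3 in MT+/+ saline, 119 and 101 in MT+/+ DOX, 119 and 114 in MT-/- saline, and 226 and 380 in MT-/- DOX. The second MT-/- DOX heart was the highest in every case, and the first was higher than all saline and MT+/+ arrays in both. The other 3 probe sets, all annotated to NM_019808 like 1450786_x_at, had the same order: 1422863_s_at reached 302 and 466 in MT-/- DOX against 158 to 213 elsewhere, 1422861_s_at 96.7 and 202 against 51.5 to 63.4, and 1422862_at 97.3 and 254 against 30.1 to 64.6. The 4 probe sets of NM_019808 share a target and are not independent. Which transcript forms each probe set reads was not analysed here.

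In MT-/- hearts the DOX rise was log2 1.52 ± 0.31 for 1427475_a_at (2.87-fold, adjusted p 0.0268), 1.20 ± 0.20 for 1450786_x_at (2.30-fold, adjusted p 0.0115), 1.03 ± 0.21 for 1422863_s_at (adjusted p 0.0245) and, as a description only, since it passed the filter through this group alone, 1.06 ± 0.25 for 1422861_s_at (adjusted p 0.0439). The other such probe set, 1422862_at, missed the threshold at +1.33 ± 0.34 (adjusted p 0.0543, or 0.0034 blocked). With only the compared groups the call of 1427475_a_at was lost (0.0582), as was that of 1422861_s_at (0.0921), which a pseudocount of 64 also ended (0.0501). In MT+/+ the 5 differences lay between +0.08 and +0.62 with no call, and the interaction of 1450786_x_at was +0.86 ± 0.28 (p 0.0139 by limma, adjusted p 0.9995). Averaged over genotypes the dimmer probe sets rose by 0.56 to 1.07 with 4 of 5 called, and 1422861_s_at at +0.57 was called only with the block (adjusted p 0.0684, or 0.0200 blocked). Only the averaged rise of 1450786_x_at (+0.77 ± 0.14, adjusted p 0.0091) kept its call whichever array was left out (largest adjusted p 0.0354). Without MT-/- DOX 2 the MT-/- difference was +0.98 for 1427475_a_at (adjusted p 0.0818) and +0.76 for 1422863_s_at (0.143), both then without a call, while 1450786_x_at kept its own. Without either MT-/- saline array none of these MT-/- calls held (adjusted p up to 0.232), that of 1450786_x_at included (0.0661 and 0.0804), and that of 1422861_s_at was also lost without any MT+/+ array. The averaged call of 1427475_a_at was lost without MT+/+ saline 1, MT+/+ DOX 2 or MT-/- saline 1 (adjusted p up to 0.0579), that of 1422863_s_at without any array except MT+/+ saline 1 and MT-/- DOX 1 (up to 0.121), and that of 1422862_at without any MT+/+ or MT-/- saline array (up to 0.111). Without an MT-/- DOX array 1422862_at did not pass the filter. The mean over all 7 probe sets gave +0.52 averaged over genotypes (adjusted p 0.0231), opposite in sign to the brightest probe set.

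**Figure D2:**
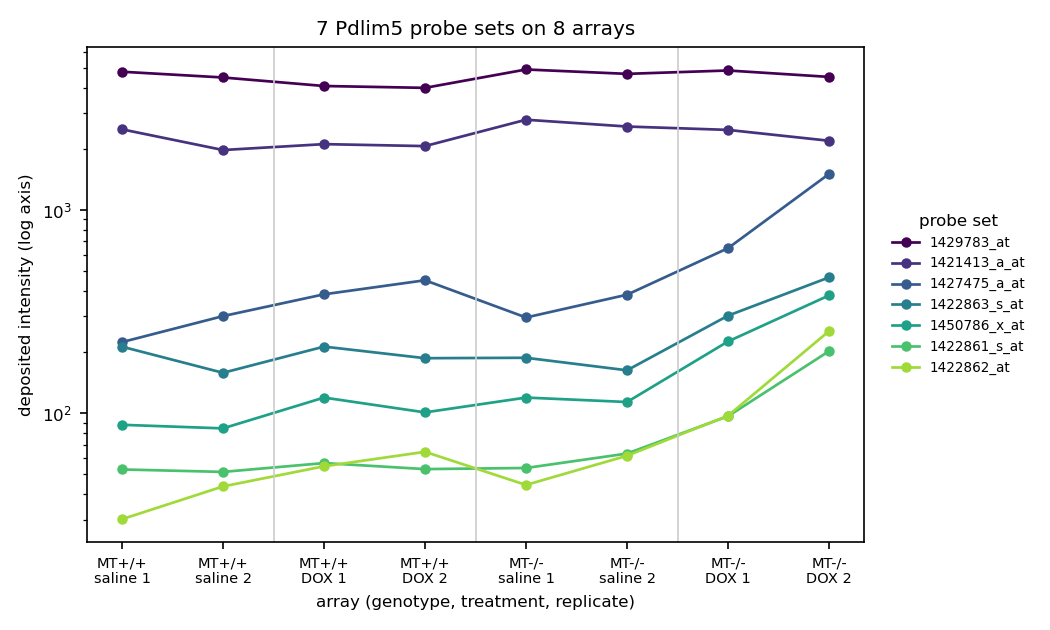
Deposited intensity (log axis) of the 7 Pdlim5 probe sets on the 8 arrays; each line joins the values of 1 probe set and grey lines part the groups. The upper 2 lines stay within 3987 to 4909 and 1972 to 2779, while the 5 lower lines reach their highest values on the 2 MT-/- DOX arrays.

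Ldb3 (Cypher or ZASP), which links alpha-actinin to protein kinase C, showed probe sets that moved apart. The brightest, 1416752_at (annotated to NM_011918), read 4923 and 4331 in MT+/+ saline, 4546 and 3679 in MT+/+ DOX, 5828 and 5340 in MT-/- saline, and 5204 and 4164 in MT-/- DOX. Second in brightness was 1433783_at, with 1875 and 2159 in MT+/+ saline, 2400 and 2387 in MT+/+ DOX, 1691 and 2117 in MT-/- saline, and 2317 and 3325 in MT-/- DOX. So the first was lower under DOX in each replicate number and the second higher, on every DOX array against every saline array. Without the block the averaged differences were -0.21 ± 0.11 (adjusted p 0.285) and +0.35 ± 0.11 (adjusted p 0.0710), and the remaining probe set, 1451999_at, had +0.62 ± 0.22 (adjusted p 0.108). With the replicate block all were called (0.0155, 0.0138 and 0.0201), in opposite directions. In MT-/- alone they were called with the block too (0.0384, 0.0170 and 0.0203), against 0.431, 0.0922 and 0.120 without it. Without MT-/- DOX 1 the second probe set passed as well (+0.47, adjusted p 0.0097, and +0.76 in MT-/-, adjusted p 0.0146), as did 1451999_at without MT+/+ saline 1 (+0.83, adjusted p 0.0462).

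Pdlim7 (Enigma), a PDZ-LIM protein of muscle and of many other cells, read far below the brightest members, though its 3 probe sets reached the array median on all 8 arrays. Its main probe set, 1417959_at, read 333 and 336 in MT+/+ saline, 333 and 256 in MT+/+ DOX, 439 and 587 in MT-/- saline, and 318 and 353 in MT-/- DOX. Its highest values were those of the MT-/- saline hearts. DOX arrays lay below saline arrays after quantile normalization, although the deposited values overlap. The averaged difference was -0.39 ± 0.12 (adjusted p 0.0655, or 0.0273 blocked and 0.0424 without MT+/+ DOX 1). Another probe set, 1428319_at, had -0.26 ± 0.09 (adjusted p 0.0879, or 0.0307 blocked), and 1443785_x_at 0.00 ± 0.10. In MT-/- alone 1417959_at had -0.54 ± 0.17 (adjusted p 0.105, or 0.0423 blocked). The summed signal of 7 smooth muscle markers ran between 4564 and 6025 in MT+/+ saline, 3230 and 3582 in MT+/+ DOX, 6729 and 7720 in MT-/- saline, and 3036 and 3824 in MT-/- DOX. It was thus also highest in MT-/- saline. Acta2 alone gave 4498 and 5151 of the MT-/- saline sums, against 3718 and 2391 in MT+/+ saline. The median difference of the 7 markers between genotypes under saline was log2 -0.06. The part of smooth muscle in the Pdlim7 values was not tested.

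Nexn and Myoz2 gave no call. Nexn read 2378 and 3040 in MT+/+ saline, 2729 and 3572 in MT+/+ DOX, 2704 and 2968 in MT-/- saline, and 2837 and 2794 in MT-/- DOX, and its groups overlapped (averaged DOX difference +0.05 ± 0.10, adjusted p 0.799). Myoz2 lay between 10024 and 11796 on all 8 arrays, with +0.07 ± 0.04 (adjusted p 0.340). Neither was called in any of the 7 comparisons.

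In the genotypes taken singly, 0 of 19 member probe sets were called for DOX in MT+/+, against 2.48% of all probe sets. At an unadjusted limma p under 0.05 there were 2, against 16.6% of all probe sets. With the block 1 was called (Fhl2), against 2740 of all 24751 probe sets. For DOX in MT-/- 6 rose and 1 fell, against 6.21% of all probe sets called, or 5 and 1 without the 2 Pdlim5 probe sets that passed the filter through MT-/- DOX alone. That count was 13 with the block, or 11 without those 2 probe sets, against 4188 of all 24751 probe sets. With only the compared groups it was 2, against 948 of all probe sets, where the main fit had 1538. With any 1 array except MT-/- DOX 1 left out it was smaller, as was the count over all probe sets. The interaction of genotype with DOX called 0 of the 19, with 0% of all probe sets called, so a difference between the genotypes in these responses was not shown. At an unadjusted p under 0.05 the interaction gave 4 of 19 (Pdlim3 and 3 Pdlim5 probe sets), against 2.32% of all probe sets, and 3 without 1422861_s_at, which passed the filter through MT-/- DOX alone.

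**Figure D3:**
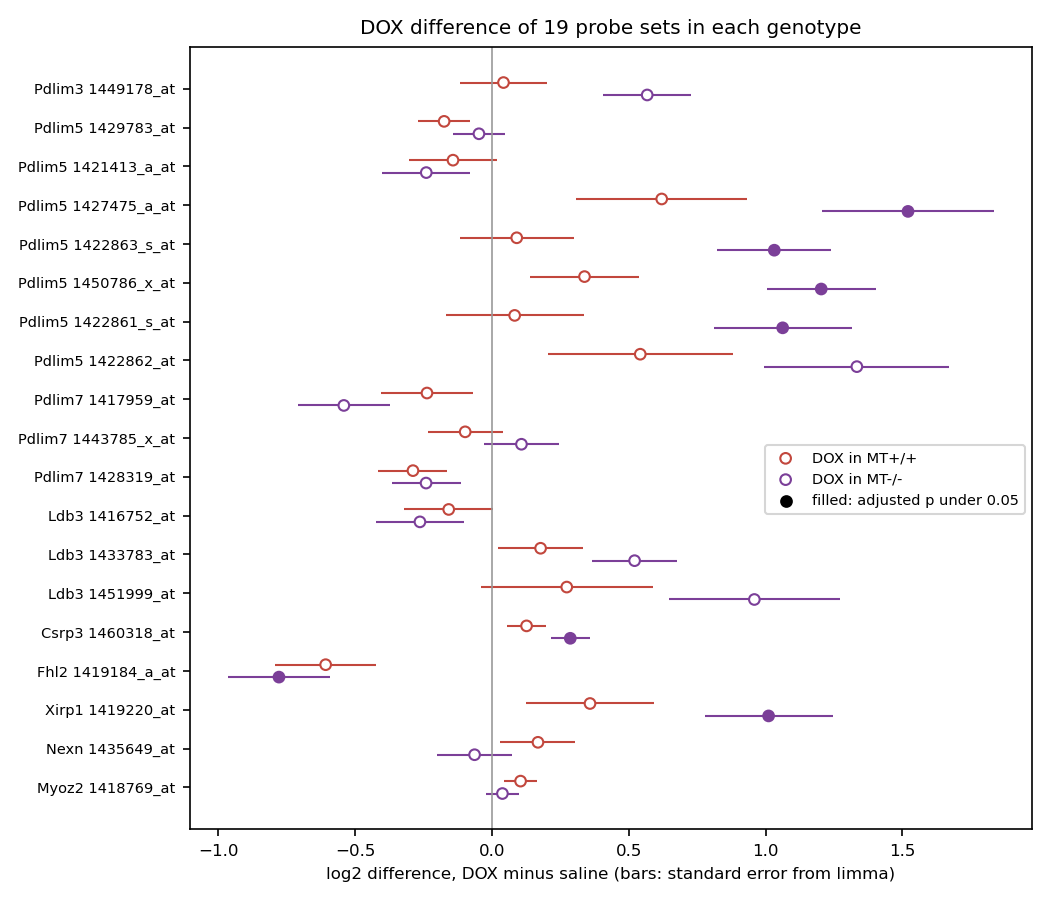
Log2 difference between DOX and saline for the 19 probe sets in MT+/+ (red) and MT-/- (purple); bars are standard errors from limma on 2 arrays per group, and filled points have an adjusted p under 0.05. No point is filled in MT+/+ and 7 are filled in MT-/-, of which Fhl2 is the one below 0.

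MT-/- DOX 2 had the highest value of all arrays for Csrp3, Xirp1, Myoz2, Pdlim3, 2 Ldb3 probe sets and the 5 dimmer Pdlim5 probe sets, and the lowest for Fhl2. Beside these, the summed signal of 8 atrial markers was also highest there, at 8447, against 5843 in MT-/- DOX 1, 5161 and 6117 in MT-/- saline and 2665 to 4173 in MT+/+. Nppa, the atrial natriuretic peptide gene, made up 7116 of the 8447. The other 7 markers summed to 1330 there, within the 1298 to 1895 of the other arrays, and Myl4 was at its lowest (370). The summed signal of 6 neutrophil markers was 3597 and 2913 in MT-/- DOX, against 625 to 1401 on the other 6 arrays. S100a8 alone gave 1573 and 1508 of these. For DOX in MT-/- 3 of 6 markers were called higher, against 359 of 13008 genes. Camp (93.7 and 83.6) and Cxcr2 (95.8 and 87.0) lay there within the range of the other arrays. The part of either summed signal in the results was not tested.

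Genotype, MT-/- against MT+/+, separated Pdlim3 from all other members. Pdlim3 encodes ALP, the actinin-associated LIM protein of muscle. Its probe set read 218 and 201 in MT+/+ saline, 252 and 191 in MT+/+ DOX, 479 and 521 in MT-/- saline, and 699 and 765 in MT-/- DOX. Every MT-/- array was above every MT+/+ array, and within MT-/- the DOX arrays were above the saline arrays. Averaged over treatments Pdlim3 was higher in MT-/- by log2 1.38 ± 0.11 (2.59-fold, adjusted p 0.0012), the 17th largest rise of 24751 probe sets. The call held whichever array was left out (largest adjusted p 0.0088) and under the other settings tried (largest 0.0012). Under DOX the difference was +1.64 ± 0.16 (3.11-fold, adjusted p 0.0050), held in the same fits (largest adjusted p 0.0368). Under saline it was +1.11 ± 0.16 (2.16-fold, adjusted p 0.0446), lost without any of the 4 saline arrays or either MT-/- DOX array (adjusted p up to 0.318).

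The Pdlim3 response to DOX was +0.57 ± 0.16 in MT-/- (adjusted p 0.0784, or 0.0199 blocked) and +0.04 ± 0.16 in MT+/+ (adjusted p 0.935), and the interaction was +0.53 ± 0.23 (p 0.0469 by limma, adjusted p 0.9995). Averaged over genotypes it was +0.30 ± 0.11 (adjusted p 0.119, or 0.0410 blocked). Pdlim3 lies on chromosome 8, as do Mt1 and Mt2, but the distance between them was not analysed here. A part of this location in the Pdlim3 difference was not tested. Of the atrial markers 1 of 8 was called higher in MT-/- (Nppa, +1.20, adjusted p 0.0198), the list's median was -0.06, and their summed signal, given above, was also higher on each MT-/- array. Without Nppa the sums were 1298 to 1720 in MT-/- and 1309 to 1895 in MT+/+, and overlapped. The part of Nppa in the Pdlim3 difference was not tested. The sequence before the Pdlim3 start (chr8:45885237-45885486, plus strand, GRCm38.p6) is shown because every MT-/- array was above every MT+/+ array for Pdlim3. It holds 2 matches to CATTCC, in capitals (1 on the opposite strand), the nearer ending 6 bases before the start, and no CArG box or MEF2 site.
Pdlim3 start: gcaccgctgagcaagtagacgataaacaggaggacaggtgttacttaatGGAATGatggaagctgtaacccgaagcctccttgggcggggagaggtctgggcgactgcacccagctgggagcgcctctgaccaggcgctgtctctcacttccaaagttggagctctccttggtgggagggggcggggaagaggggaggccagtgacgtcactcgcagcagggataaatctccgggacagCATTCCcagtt

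Over all member probe sets, 2 of 19 were called higher and 0 lower for genotype averaged over treatments, against 0.905% of all probe sets (0.44% higher). Besides Pdlim3 this was the Pdlim5 probe set 1450786_x_at (+0.85 ± 0.14, 1.81-fold, adjusted p 0.0353), a call lost when any one array except those of MT-/- DOX was left out (adjusted p up to 0.150). Pdlim3 alone had MT-/- and MT+/+ arrays that did not overlap, against 5.74% of all probe sets. Under saline 1 of 19 was called (Pdlim3), against 0.186%, and under DOX 2 of 19 (Pdlim3, and 1450786_x_at at +1.29 ± 0.20, adjusted p 0.0493), against 0.283%. The latter was lost in 6 of 9 other settings and when any one array except MT-/- DOX 1 was left out (adjusted p up to 0.332). With the block the calls were 5 for genotype averaged and 5 under DOX, against 1202 and 383 of all 24751 probe sets. The added member calls were the Pdlim5 probe sets 1427475_a_at (blocked adjusted p 0.0220 averaged and 0.0212 under DOX), 1422861_s_at (0.0383 and 0.0322) and 1422862_at (0.0195 and 0.0271). The latter pair passed the filter through MT-/- DOX alone, and without them the blocked counts were 3 and 3. Without MT-/- DOX 1 the counts were 4 and 4. With all arrays the Fhl2 genotype difference was log2 -0.20 ± 0.13 averaged over treatments (adjusted p 0.558), with no call. Leaving out 1 array it ranged from -0.38, without MT-/- DOX 1, to -0.02. Under DOX it was -0.29 ± 0.19 (adjusted p 0.831), and ranged from -0.65, without MT-/- DOX 1, to +0.07. The averaged count was 1 without any saline or MT+/+ DOX array.

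**Figure D4:**
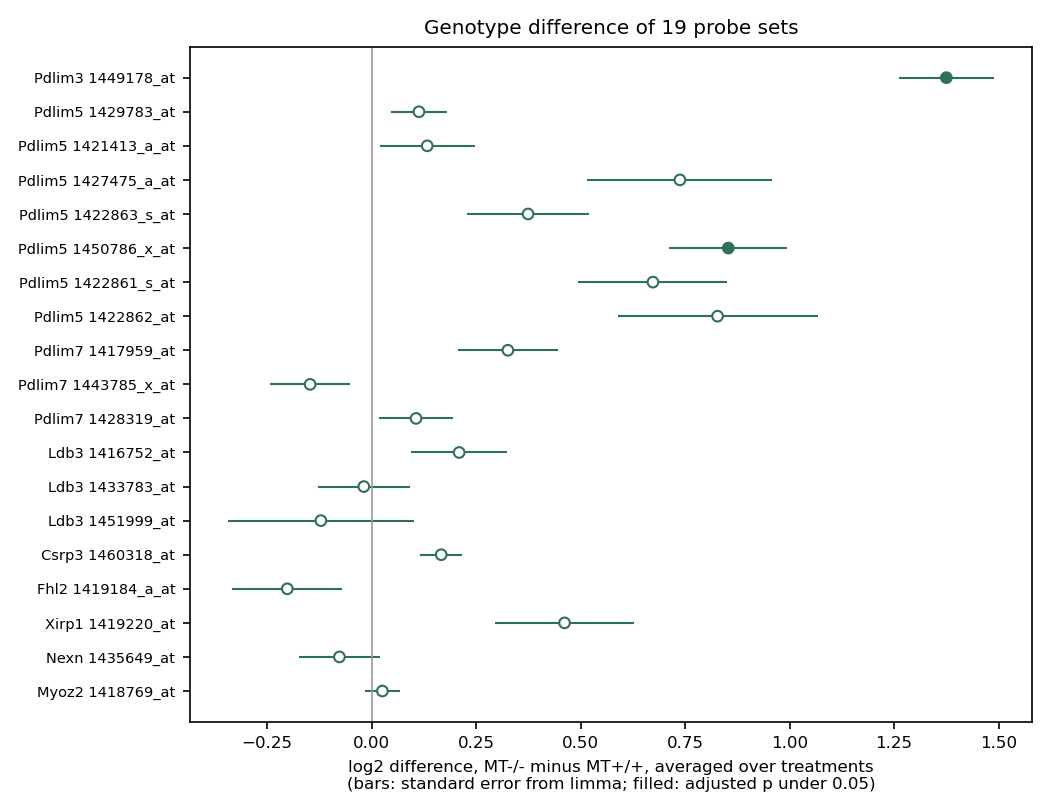
Log2 difference between MT-/- and MT+/+, averaged over treatments, for the 19 probe sets; bars are standard errors from limma and filled points have an adjusted p under 0.05. Pdlim3 at +1.38 and the Pdlim5 probe set 1450786_x_at at +0.85 are the filled points.

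Other genes of the Z-disc came from a list of 30. Like the members and the lists below, it was chosen with earlier results of these data known, so its counts are a description. Of 25 tested, 7 rose and 0 fell after DOX averaged over genotypes, against 908 and 1016 of 13008 genes. Their median was log2 +0.20, against -0.01 over all genes. Trim54 (MuRF3), a ubiquitin ligase of sarcomere and microtubules, rose by 1.46 ± 0.08 (2.75-fold, adjusted p 1.0e-04), and the titin-bound strain sensor Ankrd1 by 1.47 ± 0.14 (2.77-fold, adjusted p 5.3e-04). The intermediate filament gene Des rose by 0.48 ± 0.07 (adjusted p 0.0028, another probe set +0.05), and Synpo2l, an actin-bundling partner of alpha-actinin, by 1.12 ± 0.21 (adjusted p 0.0109, another probe set -0.21). With the block 12 were higher and 1 lower, and 6702 of all 24751 probe sets were called. Over all 54 probe sets of the list 13 rose and 2 fell, both of the latter from Synpo2.

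Other LIM domain genes, from a list of 35 that includes genes of non-muscle cells, moved both ways. Of 31 tested, 3 rose and 7 fell, against 908 and 1016 of 13008 genes, with a median of -0.08. With the block 5 rose and 12 fell, and 6702 of all 24751 probe sets were called. Over all 57 probe sets of the list 5 rose and 11 fell. Nrap, a LIM and nebulin-repeat protein of myofibril assembly, rose by 1.03 ± 0.07 (2.04-fold, adjusted p 1.4e-04), and Limd1, a scaffold of Hippo signalling, by 1.24 ± 0.14 (2.36-fold, adjusted p 0.0012). Csrp2, a relative of Csrp3 found in smooth muscle and fibroblasts, fell by 0.83 on the log2 scale (-0.83 ± 0.09, adjusted p 0.0011), and the focal adhesion gene Tgfb1i1 by 0.77 (-0.77 ± 0.10, adjusted p 0.0020). Without MT-/- DOX 2 the counts were 2 and 4, as they were without MT+/+ saline 1 or MT+/+ DOX 2, and without MT-/- saline 1 they were 2 and 3. The falls stood beside the falls of fibroblast and smooth muscle markers given above, whose part was not tested. Limd1 was also lower in MT-/- (genotype averaged -0.88, adjusted p 0.0338) and Csrp2 higher (+0.51, adjusted p 0.0494).

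Costamere and intercalated disc genes, which tie the Z-disc to the membrane, gave 1 call by their brightest probe sets. Of 29 tested, 0 rose and 1 fell, against 908 and 1016 of 13008 genes, with a median of -0.02. The fall was that of the integrin-binding gene Itgb1bp2 (melusin) at -0.69 ± 0.13 (adjusted p 0.0098). With the block 5 rose and 5 fell, and 6702 of all 24751 probe sets were called. Leaving out MT-/- DOX 1 or MT+/+ DOX 1 also changed the counts of the list. With the mean of probe sets per gene 2 rose and 1 fell. Over all 63 probe sets of the list 4 rose, those of Pkp2 (+0.66), Dtna (+0.53), Dsg2 (+0.44) and Cdh2 (+0.34), and 2 fell, the second from Gja1 (-0.52), all named after their values were seen. Of 16 calcineurin signalling genes 0 were called by limma, against 908 higher and 1016 lower of 13008 genes. By brightest probe set 1 of these genes had an unadjusted limma p under 0.05, where the share over all probe sets, not genes, was 27.4%. Their median was -0.07, and the nearest by brightest probe set was Nfatc2 (-0.38 ± 0.17, adjusted p 0.176). Over all 44 probe sets 1 fell, a dimmer one of the calcineurin subunit gene Ppp3cb (-0.81, adjusted p 0.0126), whose brightest probe set had -0.07. With the block 1 fell.

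**Figure D5:**
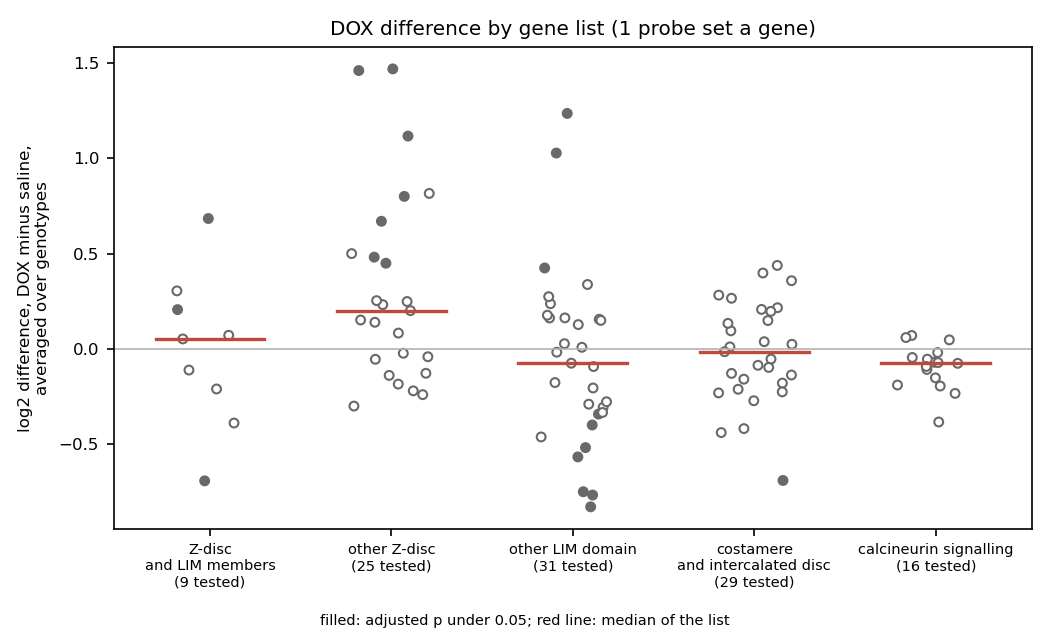
Log2 difference between DOX and saline, averaged over genotypes, for the members (9 genes, brightest probe set each) and 4 lists of related genes; filled points have an adjusted p under 0.05 and red lines are list medians. The other Z-disc genes have 7 filled points, all above 0, and the other LIM domain genes 3 above and 7 below.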

How the data were processed

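Hearts of 8 mice in 4 groups of 2 were measured on 1-colour Affymetrix arrays. The deposited values are 1 linear intensity per probe set, made with GCOS 1.4 per the submitters' processing notes; no source used here gives the signal algorithm or scaling target. After removal of 64 control probe sets, arrays were quantile-normalized, because their trimmed means differed by 8.06%, and tested as log2(intensity + 16), a scale that shrinks dim probe sets' changes. Probe sets that reached the array median on at least 2 arrays were kept (24751 of 45037). limma 3.58.1 in R 4.3.3 fitted 4 group means (lmFit, eBayes with trend) for 7 comparisons, with two-sided p adjusted by Benjamini-Hochberg, threshold 0.05. The labels call the 2 samples of a group biological replicates. The script was tested on simulated data. The brightest kept probe set stood for a gene in lists. All members were named; of each other list, up to 4 called genes with the smallest adjusted p. Members and lists were chosen with earlier results of these data known. Symbols came from the platform's annotation, and for all 9 genes with a probe set the Entrez number matched RefSeq's. Same-numbered arrays deviated together from their group means (correlations 0.36 to 0.54 over 6 pairs of groups), so values with the replicate number as a block stand beside results where the call changes. Alternatives covered scaling, pseudocount (1 and 64), filter, trend, the groups fitted, the block, probe set means and leaving out each array.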

Additional observations from a re-analysis of the deposited data

How the results depend on the processing

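Counts of called member probe sets moved by over 1.5 times in part of the settings. With the replicate block they were 1 (DOX in MT+/+, 0 without it), 13 (DOX in MT-/-, 7 without it), 14 (DOX averaged, 7), 5 (genotype under DOX, 2) and 5 (genotype averaged, 2), and apart from those given beside the results the block changed no other member call. Over all 24751 probe sets the block gave 2740 calls (613 without it), 4188 (1538), 6702 (3433), 383 (70) and 1202 (224), in the same order. With only the compared groups DOX in MT+/+ gave 1, DOX in MT-/- 2 and genotype under DOX 1. With the mean of probe sets per gene, where 9 genes and not 19 probe sets are counted, DOX in MT-/- gave 4, DOX averaged 4, genotype under DOX 1 and genotype averaged 1. For genotype under DOX the count was also 1 with deposited intensities, median centring, a pseudocount of 64, the filter on the mean and no trend. With 1 array left out the counts ranged from 0 to 1 (DOX in MT+/+), 0 to 7 (DOX in MT-/-), 3 to 7 (DOX averaged), 0 to 1 (genotype under saline), 1 to 4 (genotype under DOX) and 1 to 4 (genotype averaged); fewer arrays leave fewer residual degrees of freedom, and a group left with 1 array was assumed to vary like the others. The interaction stayed at 0 in every setting. Signs of called values turned only for the brightest Pdlim5 probe set when all 7 were averaged (+0.84 in MT-/- and +0.52 averaged). In 64 further cases a sign turned with no call on either side. The causes of the other changes were not tested. The 2 arrays per group limit what can be detected.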
